A study of Drosophila melanogaster with 29 samples.

Results

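The heat shock cognate 70 kDa proteins are the 5 Hsc70 genes of Drosophila melanogaster, Hsc70-1 to Hsc70-5, and their RNA was followed here through gain and loss of menin, the protein encoded by Mnn1. A probe counted as a member when Hsc70-1, Hsc70-2, Hsc70-3, Hsc70-4 or Hsc70-5 was the only gene symbol it carried. These are 5 of 11500 genes that either array names singly. The rule found 10 of the 30377 embryo spots tested, with 2 spots per gene, and 6 of the 13966 adult probe sets tested. The adult probe sets were 143191_at for Hsc70-1, 143192_at for Hsc70-2, 143193_at and 144895_f_at for Hsc70-3, 143194_at for Hsc70-4 and 153311_at for Hsc70-5. Another 2 adult probe sets carry the symbol of a member together with that of a second gene and were left out.

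Hsc70 proteins are ATP-driven chaperones that bind exposed stretches of unfolded polypeptide and release them through cycles of ATP binding and hydrolysis, steered by J-domain cochaperones and nucleotide exchange factors. Unlike the stress-inducible Hsp70 genes, the cognate genes are expressed without heat shock. Hsc70-4 is the main cytosolic member and also strips clathrin coats from vesicles, Hsc70-3 is the fly form of BiP in the lumen of the endoplasmic reticulum, and Hsc70-5 is the mitochondrial member that helps to draw proteins through the inner membrane and to fold them. Hsc70-1 and Hsc70-2 are cytosolic relatives, and Hsc70-2 is known from the germ line of the male.

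The embryo samples, called mnn++, overexpressed a full-length Mnn1 cDNA from a P-element construct under the yeast UAS promoter, which responds to GAL4. Their controls, cntrl1 and cntrl2, carried the driver without the Mnn1 construct. Neither the tissue in which the driver acts nor the difference between the controls is given in the sources used here. From flies kept at 25 C, embryos were collected over 2-4, 4-6, 6-8 and 2-16 h, the last of which spans the other windows, and 16 two-colour arrays set mnn++ against a control in both dye orientations. On 2 more arrays cntrl1 was hybridised with cntrl2, both of 2-16 h. Adults, raised at 25 C and taken 3 to 5 days after eclosion, were hybridised to 11 single-channel arrays. Females were wt (1 array), the control stock X113_X84 (1), the heterozygotes X113_Y79 and X84_X46 (1 each) and the mnn- combinations X46_Y79 and Y79_X46 (1 each). Males were wt (1 array), X113_X84 (1) and mnn- of X46_Y79, Y79_X46 and Y79_Y79 (1 each). A description attached to every adult array speaks of flies homozygous for null alleles, which contradicts the titles, and the titles were followed. Wt and X113_X84 were pooled as non-mutant. Whether arrays came from separate cultures is not stated. No 2 adult arrays share both sex and stock or cross, so their spread holds differences between stocks and crosses together with technical ones. Over the embryo windows the spread is that between collection ages. P-values measure these spreads and not that between repeated cultures. The number of arrays limits the precision.

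Medians of the embryo arrays lay between -0.011 and 0.015 and those of the adult arrays between 5.465 and 5.534 on the log2 scale. Mnn1 itself, the gene overexpressed, read 0.56 ± 0.09 (SE) and 0.62 ± 0.08 higher in mnn++ on its 2 spots at 2-16 h. Adjusted p there was 0.9997 and 0.5645. It gave 0.03 ± 0.09 and 0.14 ± 0.08 at 2-4 h, and 0.08 ± 0.09 and 0.15 ± 0.08 at 4-6 h. Intervals in these windows spanned both signs, so a rise of Mnn1 was not resolved there. At 6-8 h it gave 0.24 ± 0.09 and 0.25 ± 0.08 (adjusted p = 0.913 on both spots). Over the 4 windows it gave 0.23 ± 0.07 and 0.29 ± 0.07, where adjusted p was 0.2265 and 0.1065. The sign of every embryo ratio rests on that reading of Mnn1: no label states it, and the direction is likely, not settled. In adults the probe set of Mnn1 did not separate mnn- from non-mutant flies (0.11 ± 0.12, adjusted p = 0.8843). Where it lies relative to the mutant lesions is not known here, so it does not check the genotypes.

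Among the adults, the sexes differed clearly in Hsc70-1, Hsc70-2 and Hsc70-4, and by a small amount that depended on single arrays in Hsc70-3. Hsc70-2 was 8.04-fold and Hsc70-1 3.05-fold higher in males, while Hsc70-4 was 1.58-fold lower. One of the probe sets for Hsc70-3 was 1.18-fold lower, and Hsc70-5 did not pass. Thus 4 of 6 probe sets passed at an adjusted p under 0.05, where 65.4% of all probe sets passed in either direction, 32.4% higher and 33% lower in males. The share of members called is therefore near that of the array as a whole.

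**Figure D1:**
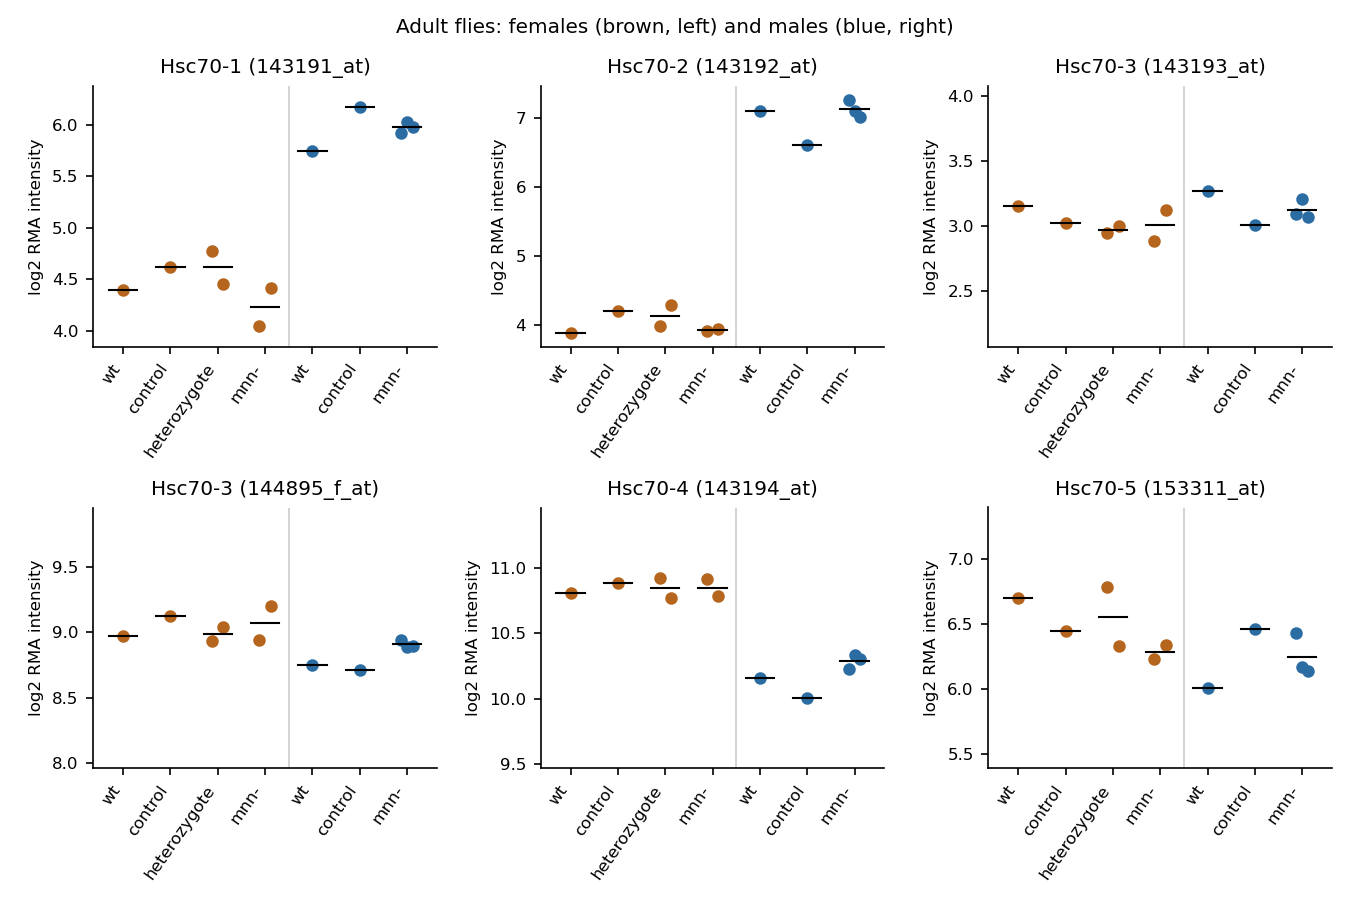
Deposited log2 RMA intensity of each Hsc70 probe set on the 11 adult arrays, females in brown and males in blue, with a black line at each group mean and panels of unequal vertical range. Hsc70-2 runs from 3.892 to 4.289 in females and from 6.599 to 7.259 in males, and Hsc70-4 is the other way round, from 10.772 to 10.926 in females and from 10.007 to 10.336 in males.

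Hsc70-2, the germ-line member, stood at 3.892 in wt females, 4.213 in control females, 3.989 and 4.289 in heterozygous females, and 3.923 and 3.951 in mnn- females, in log2 intensity. In males it stood at 7.096 in wt, 6.599 in the control, and 7.259, 7.098 and 7.012 in mnn-. Every male array was above every female array, with no value between 4.289 and 6.599. How many of all probe sets separate the sexes in this way was not counted, and 65.4% passed by sex. The difference of males from females was 3.01 ± 0.13 (SE; 95% interval 2.73 to 3.28; adjusted p = 1.098e-09), and all 5 male arrays showed it. On the female arrays 21.5% of probe sets were dimmer than that of Hsc70-2, and on the male arrays 83%. That position describes the brightness of a probe set and not the amount of its RNA.

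The sex difference of Hsc70-2 passed in non-mutant and in mnn- flies, while heterozygotes were measured in females only. In non-mutant flies it was 2.79 ± 0.17 (adjusted p = 2.6e-07) and in mnn- flies 3.19 ± 0.16 (adjusted p = 2.833e-08). The difference between these differences was 0.39 ± 0.24 (95% interval -0.13 to 0.91; adjusted p = 0.9921) and did not pass. Among males the order from low to high was control, mnn- Y79_Y79, wt, mnn- Y79_X46 and mnn- X46_Y79, so the mnn- arrays lie on both sides of the wt array. In order, the group means were 3.937 ± 0.02 (SD, n = 2) in mnn- females, 4.052 ± 0.227 (n = 2) in non-mutant and 4.139 ± 0.212 (n = 2) in heterozygous females, and 6.847 ± 0.351 (n = 2) in non-mutant and 7.123 ± 0.125 (n = 3) in mnn- males. Neighbours in that order within a sex differed by less than the larger of their SDs.

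Tissue markers moved with sex in the same arrays. Of 17 probe sets for genes of testis and sperm, 15 passed as higher in males and 1 as lower. Their median log2 intensity per array was 5.19 to 5.769 in females and 8.524 to 8.679 in males. All 8 probe sets for male accessory gland genes passed as higher in males. Of 15 probe sets for ovary and germ plasm genes, 14 passed as lower in males. Of all probe sets, 32.4% passed as higher and 33% as lower. The part of these tissues in the sex difference of the Hsc70 genes was not tested. In RNA of adult flies, fewer cells of a type and less RNA per cell cannot be told apart.

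Hsc70-1, a cytosolic cognate gene, also differed by sex. Female values were 4.399 in wt, 4.617 in the control, 4.778 and 4.459 in heterozygotes and 4.05 and 4.421 in mnn-. Male values were 5.743 in wt, 6.174 in the control and 5.921, 6.03 and 5.981 in mnn-. The groups did not overlap, and the lowest male array was wt while the highest female array was a heterozygote. The share of all probe sets without such overlap was not counted. Males were higher by 1.61 ± 0.12 (95% interval 1.35 to 1.87; adjusted p = 1.318e-07). Within non-mutant flies the difference was 1.45 ± 0.17 (adjusted p = 3.04e-05), and 53.4% of all probe sets passed in that comparison.

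Hsc70-4, the main cytosolic chaperone, went the other way. It read 10.813 in wt, 10.887 in control, 10.926 and 10.772 in heterozygous and 10.914 and 10.786 in mnn- females. In males it read 10.157 in wt, 10.007 in the control and 10.223, 10.336 and 10.306 in mnn-. The sexes did not overlap, which was not counted over all probe sets either, and the female genotypes had means of 10.849 to 10.85. Males were lower, at -0.66 ± 0.07 (95% interval -0.81 to -0.50; adjusted p = 5.098e-06). The same test gave -0.77 ± 0.10 (adjusted p = 8.442e-05) in non-mutant flies and -0.56 ± 0.09 (adjusted p = 0.0003245) in mnn- flies.

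Hsc70-3, the BiP of the endoplasmic reticulum, is read by 2 probe sets that disagree. The bright one, 144895_f_at, carries a suffix that marks probes shared within a family of like sequences, so its signal may hold other transcripts. Its female values were 8.974, 9.124, 8.931, 9.045, 8.945 and 9.205 and its male values 8.75, 8.714, 8.94, 8.888 and 8.899, in the order of arrays used above. The sexes overlapped by 1 array on each side. Males were lower, at -0.23 ± 0.07 (95% interval -0.40 to -0.07; adjusted p = 0.01368). That call was lost without the control female (-0.19, adjusted p = 0.05009), without mnn- female Y79_X46 (-0.20, adjusted p = 0.05953) and with both control arrays left out (-0.18, adjusted p = 0.07647). In non-mutant flies alone the difference was -0.32 ± 0.11 (adjusted p = 0.02975) and in mnn- flies -0.17 ± 0.10 (adjusted p = 0.1839), and the difference between these, 0.15 ± 0.15, did not pass (adjusted p = 0.9949).

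The other probe set for Hsc70-3, 143193_at, was among the dimmest of the array, with 4.95% of probe sets below its mean. It ranged from 2.886 to 3.156 in females and from 3.009 to 3.268 in males, with overlapping groups. The difference was 0.08 ± 0.08 (95% interval -0.09 to 0.26; adjusted p = 0.3709).

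Hsc70-5, the mitochondrial member, read 6.699 in wt, 6.448 in control, 6.784 and 6.331 in heterozygous and 6.23 and 6.341 in mnn- females. Males read 6.007 in wt, 6.462 in the control and 6.433, 6.174 and 6.138 in mnn-. The groups overlapped widely, and the wt and control males stood at opposite ends of the male range. The difference of males from females was -0.17 ± 0.13 (95% interval -0.45 to 0.10; adjusted p = 0.2536), and did not pass in non-mutant flies either (-0.34 ± 0.19, adjusted p = 0.1517). In mnn- flies 58.4% of all probe sets passed between the sexes, and 3 of the 6 Hsc70 probe sets did, those of Hsc70-1, Hsc70-2 and Hsc70-4.

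**Figure D2:**
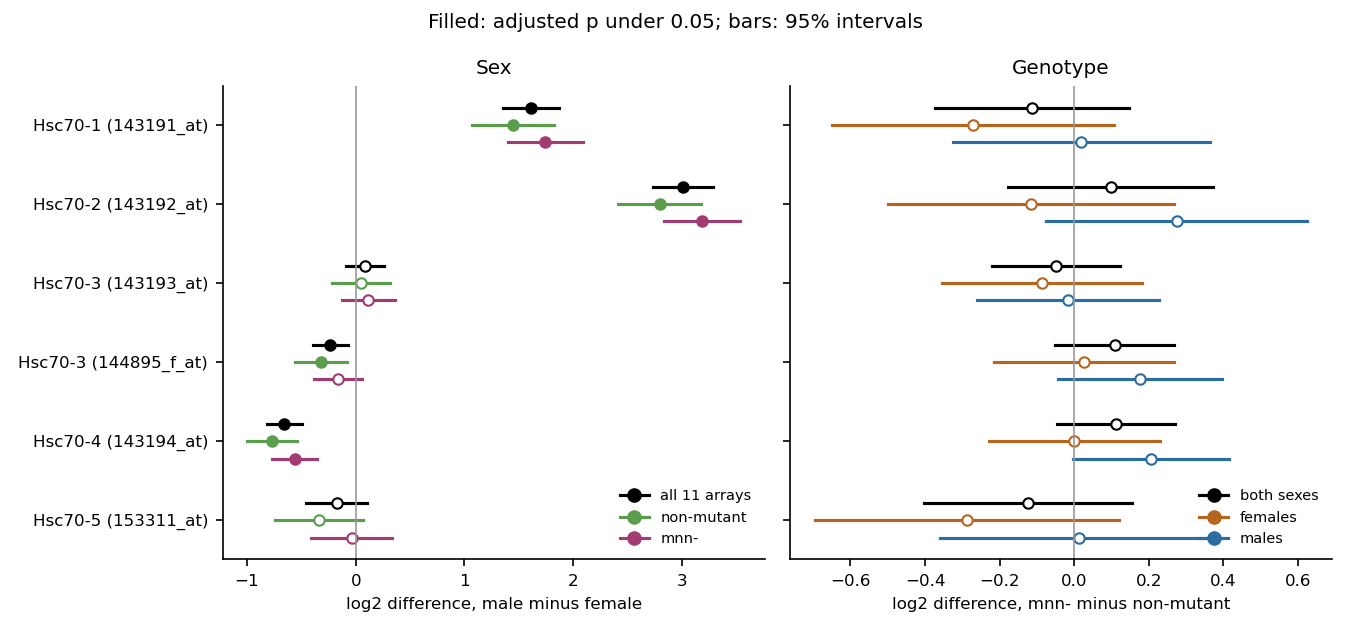
Fitted log2 differences of the 6 Hsc70 probe sets with 95% intervals, males minus females on the left and mnn- minus non-mutant on the right, on axes of unequal scale. Filled points passed an adjusted p of 0.05: 4 of 6 by sex over all 11 arrays and 0 of 6 by genotype.

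No Hsc70 gene passed the test between mnn- and non-mutant adults. Over both sexes, with sex as a term in the fit, 0 of 6 passed at an adjusted p under 0.05 where 0.0143% of all probe sets did, and 0 of 6 had an unadjusted p under 0.05. Hsc70-4 differed by 0.11 ± 0.07 (95% interval -0.05 to 0.27; adjusted p = 0.7929) and Hsc70-5 by -0.12 ± 0.13 (-0.40 to 0.16; adjusted p = 0.88). Hsc70-1 was at -0.11 ± 0.12 (-0.37 to 0.15) and Hsc70-2 at 0.10 ± 0.13 (-0.18 to 0.37). For Hsc70-3 the bright probe set gave 0.11 ± 0.07 (-0.05 to 0.27) and the dim one -0.05 ± 0.08 (-0.22 to 0.12). With 1 array left out at a time, 0 of 6 passed under any of these fits, but the sizes moved. Hsc70-5 went to -0.256 without the wt male and to -0.0492 without the wt female, and Hsc70-1 to -0.2395 without the wt male and -0.0185 without the X46_Y79 mnn- female. Hsc70-2 became -0.0541 without the control male and 0.1934 without the control female. Hsc70-4 was at 0.0563 without the control male, and the bright Hsc70-3 probe set at 0.1697 without the X46_Y79 female. The dim one ranged from -0.1114, without the control male, to 0.0025, without that same female. The median of the 6 differences was 0.03 and that of all probe sets -0.002.

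No Hsc70 gene passed between the genotypes within a sex either, and the intervals there are wider. In females, where 0.00716% of all probe sets passed, 0 of 6 did, and Hsc70-4 had a mean of 10.85 in both groups. Hsc70-5 gave -0.29 ± 0.19 (95% interval -0.70 to 0.12; adjusted p = 0.9996) and Hsc70-1 -0.27 ± 0.17 (-0.65 to 0.11; adjusted p = 0.9996) in females. In males, where 0.0286% passed, 0 of 6 did. Hsc70-2 gave 0.28 ± 0.16 (-0.07 to 0.63; adjusted p = 0.7275) in males. On the male arrays Hsc70-4 gave 0.21 ± 0.09 (unadjusted p = 0.05289, adjusted p = 0.5968) and the bright Hsc70-3 probe set 0.18 ± 0.10 (adjusted p = 0.7138). Markers of ovary and germ plasm genes in these arrays had a median of 6.704 in the wt male, 6.162 in the control male and 5.816 to 5.905 in mnn- males, and those of flight muscle 7.92, 8.147 and 6.618 to 7.109. Their part in the Hsc70 values was not tested. None of the 6 sex-by-genotype differences passed (adjusted p from 0.9921 to 0.9976), nor did any of all probe sets (0%).

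The heterozygous females and the control stock were compared on the same terms. Heterozygotes against non-mutant females gave differences from -0.12 to 0.11 for the 6 probe sets, and 0 passed (0% of all probe sets). Against heterozygotes, mnn- females were at -0.38 ± 0.17 for Hsc70-1 (unadjusted p = 0.04747, adjusted p = 0.9443) and nearer to 0 for the others, with 0 of 6 passed (0% of all probe sets). These comparisons share mnn- or non-mutant arrays with the ones above. Between the stocks pooled as non-mutant, 0 of 6 passed where 0.494% of all probe sets did. Hsc70-1 was higher in the control than in wt in both sexes, by 0.32 ± 0.15 (95% interval -0.01 to 0.66; adjusted p = 0.4843). That is a larger difference than any between mnn- and non-mutant flies over both sexes among the 6 probe sets.

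The proteins that work with Hsc70 were followed through lists of known partners. Of the cytosolic partners, 14 genes had 15 adult probe sets, with a median sex difference of -0.39 against 0.03 for all probe sets. In males 3 passed as higher and 9 as lower, where 32.4% and 33% of all probe sets did. Wus, a J-domain protein, was lower in males, at -1.92 ± 0.12 (adjusted p = 2.718e-08). Auxilin (aux), the J-domain partner with which Hsc70 uncoats clathrin, was named after its values were seen and stood at -0.92 ± 0.07 (adjusted p = 2.993e-07). The heat shock factor Hsf was lower too, at -1.68 ± 0.09. The J-domain gene jdp was higher, at 1.03 ± 0.10, as was 1 of 2 probe sets for the BAG-domain cochaperone starvin (stv), at 1.43 ± 0.14, while its other probe set gave 0.21 ± 0.13 and did not pass.

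For the endoplasmic reticulum, in which Hsc70-3 works, 16 genes had 16 probe sets. In males 1 passed as higher and 9 as lower, where 32.4% and 33% of all probe sets did, and the median was -0.19. PEK, the kinase through which misfolding slows translation, was lower, at -1.97 ± 0.12. Sil1, a nucleotide exchange factor of BiP, was lower, at -1.54 ± 0.10, and the stress sensor Ire1 was at -0.69 ± 0.10. The only probe set that passed as higher was that of crc, the fly ATF4, at 0.57 ± 0.10. Passed or not, 4 of the 16 lay above 0 and 12 below.

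For the mitochondrion, in which Hsc70-5 works, 10 genes had 10 probe sets, with a median of 0.006. In males 4 passed as higher and 1 as lower, where 32.4% and 33% of all probe sets did. Among these 10 genes the chaperonin genes differed most. Hsp60C was higher by 4.25 ± 0.11 and Hsp60B, which is needed for sperm formation, by 3.70 ± 0.13, while Hsp60A, the general mitochondrial chaperonin, was lower, at -1.73 ± 0.08. Hsp60D was higher by 1.24 ± 0.09. Roe1, the exchange factor of mitochondrial Hsp70, and blp, of the import motor, were named after their values were seen: each gave -0.02 ± 0.07, and neither passed. Of the stress-inducible Hsp70 genes only Hsp68 was measured under a single symbol, and it was higher in males by 1.59 ± 0.22 (adjusted p = 4.078e-05). Between mnn- and non-mutant flies 0 members of these lists passed.

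**Figure D3:**
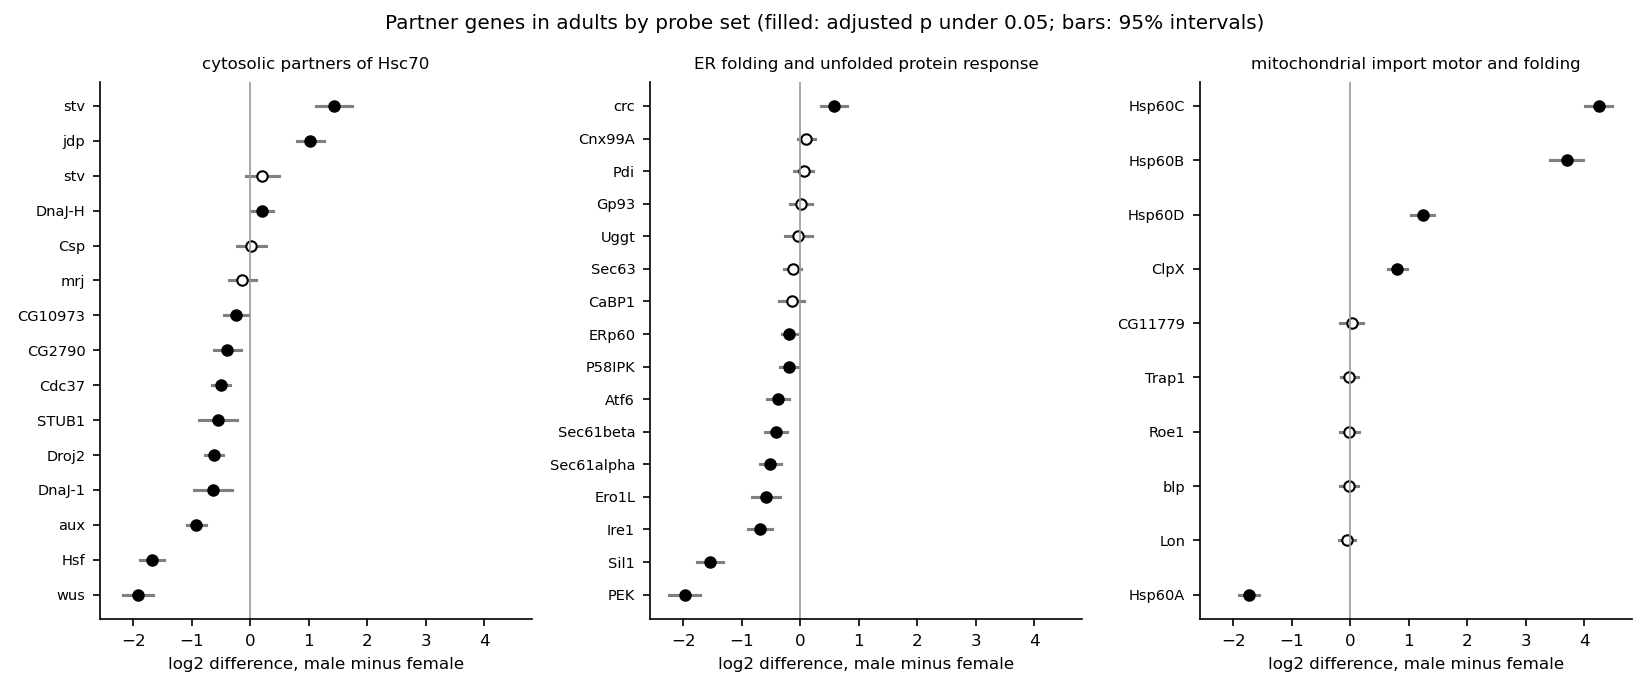
Male minus female log2 difference for each adult probe set of the partner lists, with 95% intervals and filled points where the adjusted p was under 0.05. In the mitochondrial list Hsp60C and Hsp60B lie at 4.25 and 3.70 and Hsp60A at -1.73, while 5 of 10 lie beside 0 and did not pass.

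In the embryos, mnn++ and control RNA differed little for any of the 5 genes. Averaged over the dye orientations, the 10 spots gave 80 ratios in the 4 windows against the 2 controls, from -0.29 to 0.33 on the log2 scale, and 92.5% of them lay within 0.2 of 0 (88.6% for all spots). Over the 4 windows 0 of 10 spots passed at an adjusted p under 0.05, where 0.26% of all spots did, and 1 of 10 had an unadjusted p under 0.05. Read against cntrl1 alone, 0 of 10 passed where 0% of all spots did, and against cntrl2 alone 0 of 10 where 0.181% did. Both readings use mnn++ embryos of the same windows.

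**Figure D4:**
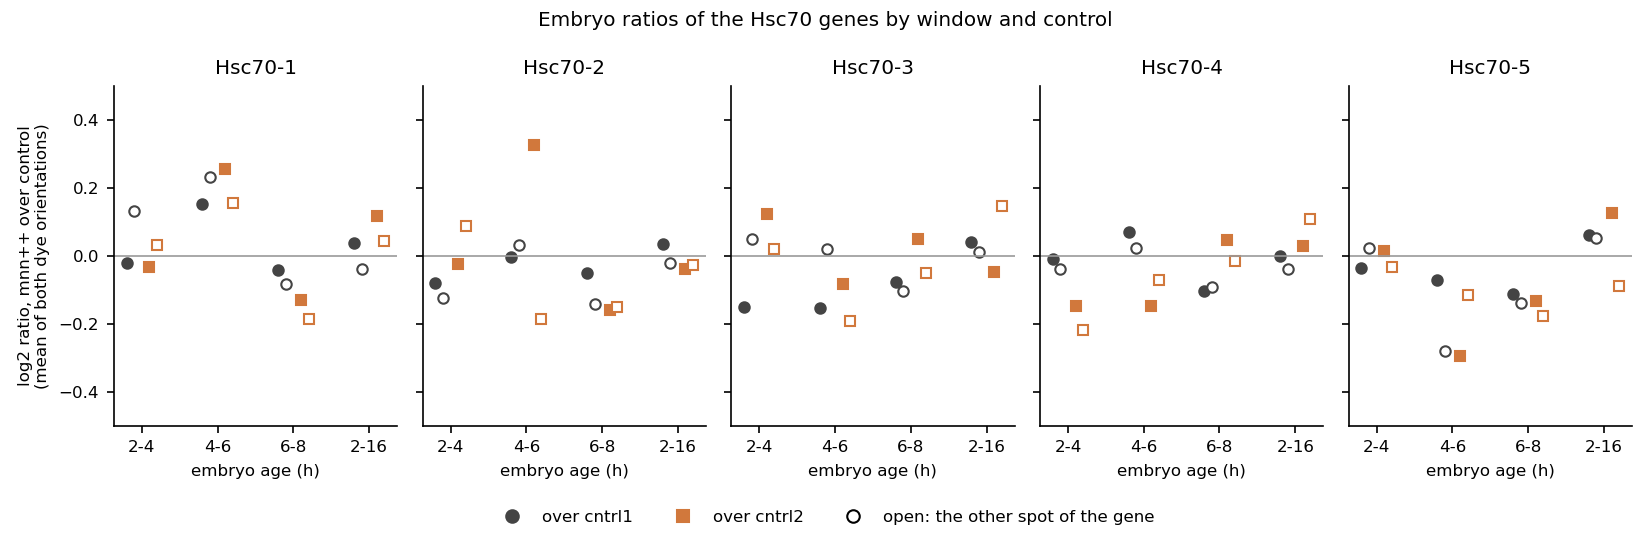
Log2 ratio of mnn++ over each control by collection window for the Hsc70 genes, each point the mean of the dye orientations, with circles for cntrl1, squares for cntrl2 and open symbols for the second spot of a gene. At 4-6 h all 4 values of Hsc70-1 are above 0 and all 4 of Hsc70-5 below 0, and 0 of 10 spots passed the adjusted test in any window.

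Hsc70-4, the main cytosolic member, gave the following ratios of mnn++ over cntrl1 on spot 6815 in the windows 2-4, 4-6, 6-8 and 2-16 h: -0.01, 0.07, -0.10 and 0.00. Over cntrl2 the same spot gave -0.15, -0.15, 0.05 and 0.03. The sign changed between windows and between controls. Spot 7491 read -0.04, 0.02, -0.09 and -0.04 over cntrl1 and -0.22, -0.07, -0.02 and 0.11 over cntrl2, and its 8 values had r = 0.792 with those of spot 6815. Over the 4 windows the spots gave -0.03 ± 0.04 and -0.04 ± 0.04 (adjusted p = 0.77 and 0.7122). Both intervals end within 0.13 of 0.

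Hsc70-1, its cytosolic relative, showed more movement between windows. On spot 1856 the ratio over cntrl1 was -0.02 at 2-4 h, 0.15 at 4-6 h, -0.04 at 6-8 h and 0.04 at 2-16 h, and over cntrl2 it was -0.03, 0.26, -0.13 and 0.12. On spot 2512 it was 0.13, 0.23, -0.08 and -0.04 over cntrl1 and 0.03, 0.16, -0.19 and 0.04 over cntrl2. At 4-6 h all 4 single arrays were above 0 on both spots, from 0.125 to 0.386. At 6-8 h all 4 dye-averaged ratios were below 0. The fitted difference at 4-6 h was 0.20 ± 0.06 (unadjusted p = 0.00993, adjusted p = 0.3913) and 0.19 ± 0.07 (unadjusted p = 0.01468, adjusted p = 0.4008), and at that age 0% of all spots passed while 3125 had an unadjusted p under 0.05. A test of unequal ratios between 2-4, 4-6 and 6-8 h gave an unadjusted p of 0.02255 and 0.01621 and an adjusted p of 0.9645 on both spots, with 0% of all spots past it. The 4-6 h excess of Hsc70-1 therefore did not hold up after adjustment.

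Hsc70-3, the BiP gene, gave -0.15, -0.15, -0.08 and 0.04 over cntrl1 and 0.12, -0.08, 0.05 and -0.05 over cntrl2 on spot 28311. On spot 28971 it gave 0.05, 0.02, -0.10 and 0.01 over cntrl1 and 0.02, -0.19, -0.05 and 0.15 over cntrl2. The spots of this gene did not follow each other (r = 0.034 over the 8 dye-averaged ratios). Over the 4 windows they were at -0.04 ± 0.04 and -0.01 ± 0.04 (adjusted p = 0.7448 and 0.941).

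Hsc70-2, the germ-line gene, was also near 0 in the embryo. Spot 5609 gave -0.08, -0.004, -0.05 and 0.04 over cntrl1 and -0.02, 0.33, -0.16 and -0.04 over cntrl2. Its value at 4-6 h over cntrl2 was the highest among the 80 ratios and rested on 1 array, which read 0.674 with mnn++ in Cy5. Spot 6285 gave -0.12, 0.03, -0.14 and -0.02 over cntrl1 and 0.09, -0.19, -0.15 and -0.03 over cntrl2, so that at 4-6 h over cntrl2 it lay on the other side of 0. The spots had r = -0.214 over the 8 ratios. Over the 4 windows they gave 0.00 ± 0.04 and -0.07 ± 0.04 (adjusted p = 0.9944 and 0.5345).

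Hsc70-5, the mitochondrial member, was below 0 against both controls at 4-6 and 6-8 h. On spot 24250 the ratio over cntrl1 was -0.04, -0.07, -0.11 and 0.06 in the windows 2-4, 4-6, 6-8 and 2-16 h, and over cntrl2 it was 0.01, -0.29, -0.13 and 0.13. On spot 24926 it was 0.02, -0.28, -0.14 and 0.05 over cntrl1 and -0.03, -0.11, -0.18 and -0.09 over cntrl2. All 8 ratios at 4-6 and 6-8 h were thus below 0, while those at 2-4 and 2-16 h fell on both sides. At 4-6 h the fit gave -0.18 ± 0.07 (unadjusted p = 0.02692, adjusted p = 0.4327) and -0.20 ± 0.07 (unadjusted p = 0.01763, adjusted p = 0.4031). Over the 4 windows spot 24926 had the lowest p among the members, with -0.09 ± 0.04 (unadjusted p = 0.04541, adjusted p = 0.4261), and spot 24250 gave -0.06 ± 0.05 (adjusted p = 0.683).

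The single arrays of Hsc70-5 were split by the dye. With mnn++ RNA in Cy3, the 8 arrays of spot 24250 had a median of 0.206 and a range from -0.276 to 0.507, and those of spot 24926 a median of 0.227 and a range from 0.057 to 0.472. With mnn++ RNA in Cy5, the medians were -0.34 and -0.388 and all 8 arrays of each spot were below 0. The RNA labelled with Cy3 read higher in 8 of 8 comparisons on both spots, and the dye shifted a single ratio by a mean of 0.28 and 0.34. Of all spots, 2.28% and 0.981% had a mean dye shift as large in either direction, against 43.2% to 96.8% for the other 8 Hsc70 spots. The arrays that set the controls against each other showed it too, with 0.21 and 0.25. Taken with mnn++ in Cy3 only, both spots passed as higher in mnn++ (0.22, adjusted p = 0.04265, and 0.24, adjusted p = 0.02005), and with mnn++ in Cy5 only both passed as lower (-0.34, adjusted p = 0.01317, and -0.43, adjusted p = 0.00691). Of all spots, 20.5% passed with mnn++ in Cy3 only and 6.76% with mnn++ in Cy5 only, against 2 of the 10 Hsc70 spots each time, so the Cy3 share of the members is near that of all spots. A split by dye was not limited to these spots. Over all spots, mnn++ arrays of the same dye orientation had a median r of 0.329 with each other. Those of opposite orientation had a median r of -0.247. The averages above are those in which a dye shift equal in both orientations cancels.

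**Figure D5:**
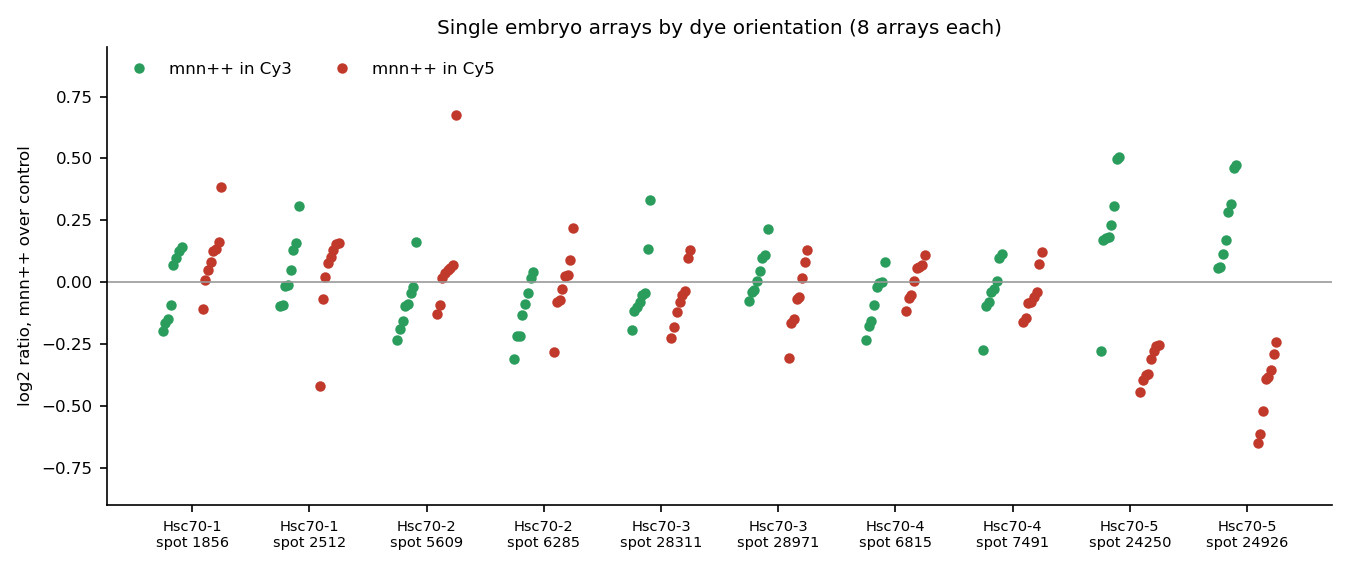
Log2 ratio of mnn++ over control on the 16 single embryo arrays for each Hsc70 spot, with 8 arrays per dye orientation (mnn++ in Cy3 green, mnn++ in Cy5 red). On the Hsc70-5 spots the orientations lie on opposite sides of 0, apart from 1 Cy3 array of spot 24250 at -0.276, and on the other spots they overlap.

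Window by window, 0 of 10 spots passed in any of the 4 (0% of all spots in each). The numbers of spots above and below 0 were 2 and 8 at 2-4 h, 3 and 7 at 4-6 h, 0 and 10 at 6-8 h, and 6 and 4 at 2-16 h. At 6-8 h the median of the 10 was -0.09, beside -0.001 for all spots, and their adjusted p-values ran from 0.9312 to 0.9976. These spots pair up by gene and share arrays, so they are not 10 separate observations. Mnn1 itself passed the adjusted test in no window, and at 2-4 and 4-6 h its unadjusted intervals spanned both signs as well. Whether Mnn1 was raised at 2-4 and 4-6 h is not known here, so a response to raised Mnn1 could not be tested there.

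The controls were compared with each other through mnn++ in all 4 windows, and 0 of 10 spots passed where 0.0395% of all spots did. Cntrl1 minus cntrl2 ran from -0.05 to 0.10 for the 10 spots. On the direct arrays at 2-16 h Hsc70-1 gave 0.22 on spot 1856 and -0.01 on spot 2512, and Hsc70-3 gave -0.13 and 0.08. Hsc70-2 gave -0.11 and -0.09. Both spots had the same sign for 1 of the 5 genes, Hsc70-2, and opposite signs for the other 4.

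The partner lists were as quiet in the embryo. The cytosolic partners had 44 spots, the genes of the endoplasmic reticulum 34 and the mitochondrial genes 24, and 0 passed in each over the 4 windows, with medians of -0.02, 0.006 and 0.02 beside -0.003 for all spots.

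The genes whose pattern most resembled each member were taken as the highest Pearson r over the 11 adult arrays, with no test. All arrays share the split between the sexes, and its part in r was not tested. For Hsc70-2 they were CG3092 (r = 0.998), CG12362 (0.998) and CG32548 (0.997), and for Hsc70-1 SkpB (0.995), Nagk (0.994) and CG7272 (0.992). Hsc70-4 was most like Graf (0.9885), MTPAP (0.981) and eIF3b (0.9795). For Hsc70-5, whose sex difference did not pass, the values were lower, with l(1)G0196 (0.917), inc (0.912) and mRpL42 (0.909). For Hsc70-3 the genes were dib (0.922), Pura (0.890) and CG17803 (0.8895). Over the 8 dye-averaged embryo ratios the most alike spots were those of Polr3E (0.975) for Hsc70-1, Cox17 (0.985) for Hsc70-2, CG13659 (0.9615) for Hsc70-3, Hers (0.984) for Hsc70-4 and CG32428 (0.977) for Hsc70-5. Whether the ratios of a window share their mnn++ RNA is not stated. For this search each member entered as the mean of its spots or probe sets, which disagree for Hsc70-3 and, in the embryo, for Hsc70-2. The genes were picked from 12443 adult probe sets or 25150 embryo spots with 1 gene symbol, the member's own left out. Among so many, high r over 8 ratios or 11 arrays can arise by chance.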

How the data were processed

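Embryo values are log2 ratios deposited by the authors, and the submitters' processing notes name limma 2.12.0 for them. Their log base and sign are not stated, and they were taken to be control over mnn++ in both dye orientations, so their sign was turned. That direction rests on Mnn1 and is likely, not settled. That both orientations run the same way rests on spot 12320, at -3.375 to -1.653 in the deposited ratios on all arrays with cntrl2 and -0.201 to 0.272 on mnn++ with cntrl1. The correlation over all spots does not show it, with a median r of -0.247 between mnn++ arrays of opposite orientation. Of 31464 spots, 1008 were empty and 79 lacked a value on 1 array. Adult values are log2 intensities deposited by the authors, summarised by RMA in affy 2.12.0 per the same notes, and 44 AFFX probe sets were left out of 14010. The genome build is not given in the sources used here.

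Dye orientations were averaged, then controls, which leaves 1 value per window (n = 4). Windows were fitted on the 8 dye-averaged ratios, where the only spread is that between controls. Where mnn++ RNA was shared, its own spread is missing from these SEs. The 11 adult arrays entered each fit together, either with a sex term or with 1 level for each combination of sex and genotype, heterozygotes kept apart. Two-sided tests came from limma 3.58.1 (lmFit, eBayes) in R 4.3.3, with Benjamini-Hochberg adjustment over all features at 0.05. The adult genotype fit and the embryo fit over the 4 windows were checked on simulated data, for the mean size of planted changes only. The other fits were not checked in this way. Alternatives covered single arrays or windows left out, either control or dye alone, scaling, dim probe sets (mean log2 under 6), eBayes settings and, added after seeing the data, stock as a block. The members and lists were chosen with earlier results of these data known. Named genes are the members, Mnn1, at most 4 genes per list and comparison by the lowest p in each direction, and the 3 most alike genes per member. Outside that rule, aux, Roe1 and blp were named after their values were seen.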

Additional observations from a re-analysis of the deposited data

Results flagged for a closer look

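Among 52 groups of 4 to 6 values of the Hsc70 genes, 2 held a value far from the others, where chance gives about 1 in 20. On spot 2512 of Hsc70-1, cntrl1 over cntrl2 read through mnn++ was 0.0825 at 2-16 h and between -0.104 and -0.0755 in the other windows. On spot 28311 of Hsc70-3, mnn++ over both controls was -0.1182 at 4-6 h and between -0.0135 and -0.004 in the other windows. The second spot of Hsc70-3 gave -0.0858 at 4-6 h.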

How the results depend on the processing

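The sex differences of Hsc70-1, Hsc70-2 and Hsc70-4 kept their direction and passed under every alternative in which they were tested. They ranged from 1.4959 to 1.7148, 2.9506 to 3.1909 and -0.8696 to -0.5894. Hsc70-1 and Hsc70-2 had 16 alternatives and Hsc70-4 had 17, because the dim filter removes Hsc70-1 and Hsc70-2. The bright Hsc70-3 probe set passed under 14 of 17. With dim probe sets left out, 3 of the 6 members could be tested, and 2 passed over all flies, 2 in non-mutant and 1 in mnn- flies, where 78.4%, 67.1% and 72.8% of the 5334 probe sets kept did. Members past the threshold over the 4 embryo windows went from 0 to 2 with mnn++ in Cy3 only and to 2 with mnn++ in Cy5 only, all of them Hsc70-5, where 20.5% and 6.76% of all spots passed. Under the alternatives run, 0 members passed in the other embryo comparisons and in the adult comparisons of genotype or stock, while the number of all spots past it over the 4 windows went from 79 to between 0 and 6233 and of all probe sets between mnn- and non-mutant flies from 2 to between 0 and 92.

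The following values changed sign. Over the 4 windows, Hsc70-2 spot 5609 became -0.0144 with arrays scaled alike, -0.0245 against cntrl1 alone and -0.083 in Cy3 only. Also in Cy3 only, Hsc70-1 spot 1856 was -0.0209, Hsc70-3 spot 28971 0.0405 and Hsc70-5 0.2242 and 0.2428. Hsc70-4 spot 6815 was 0.0092 in Cy5 only, and Hsc70-3 spot 28311 was 0.0106 against cntrl2 alone. With 1 window left out, Hsc70-1 ranged from -0.0117 to 0.0846 and from -0.0163 to 0.0928 on its spots, Hsc70-2 spot 5609 from -0.0523 to 0.0363 and Hsc70-3 spot 28971 from -0.0424 to 0.0126. Between mnn- and non-mutant adults, Hsc70-1 became 0.0477 without the control stock and the dim Hsc70-3 probe set 0.0497 without wt. With 1 array left out, Hsc70-2 ranged from -0.0541, without the control male, to 0.1934 and the dim Hsc70-3 probe set from -0.1114 to 0.0025. Between the sexes the latter became -0.0349 after quantile normalization. The cause of these changes of sign was not tested. Array numbers give no pairs, since each is used once, and the main fits took no pairing into account. The sexes can be paired by stock, however, and an alternative chosen after seeing the data took stock as a block over the 8 arrays of the 4 stocks with both sexes. It gave 1.5952 (adjusted p = 8.988e-07) for Hsc70-1, 3.018 (2.218e-07) for Hsc70-2, -0.6691 (0.0001452) for Hsc70-4 and -0.2389 (0.04426) for the bright Hsc70-3 probe set, and the same 4 probe sets passed, where 62.3% of all probe sets did.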
